A study of Mus musculus with 12 samples.

Results

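Genes for the proteins of the cytosolic ribosome were followed in 12 RNA libraries of mouse colonic epithelium. Members were the rows whose symbol begins with Rpl or Rps and a digit, plus Rpsa, Rplp0, Rplp1 and Rplp2. Ribosomal S6 kinases and rows named as pseudogenes were left out. This gave 86 of 23420 gene rows: 46 core proteins of the large subunit, 31 core proteins of the small subunit and 9 others. Those 9 were the paralogues Rpl3l, Rpl7l1, Rpl10l, Rpl22l1, Rpl36al, Rpl39l and Rps27l, the S19 binding protein Rps19bp1, and Rps4y2. Rps4y2 was matched here to Rps4l, which the GENCODE M21 annotation lists as a transcribed processed pseudogene. The core proteins Fau (S30) and Gnb2l1 (Rack1) have symbols outside this pattern and are given only for comparison.

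The groups were confluent monolayers of wild-type mouse colonic cells at day 3, day 4 and day 5, and freshly isolated colonic crypts, with 3 libraries each. The mice were 6 to 10 weeks old, per the labels. Monolayer cells came from crypts that were first grown on collagen and then plated again on scaffolds whose cross-linking is graded. Electrical resistance in the labels, in ohm cm2 with an error of unnamed type, was 526 ± 56 for day 3 monolayers, 623 ± 15 for day 4 and 407 ± 53 for day 5. No source used here says whether the 3 libraries of a group came from separate mice or cultures, so the p-values cover only the spread among these libraries, which may be technical.

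The cytosolic ribosome reads messenger RNA with a small subunit and joins amino acids with a large subunit, and each subunit is built from ribosomal RNA and one copy of most of its proteins. Many ribosomal protein messages begin with a stretch of pyrimidines, the 5′ terminal oligopyrimidine (TOP) tract, through which mTORC1 signalling and Larp1 control their translation in mammalian cells. In the colon, dividing cells at the crypt base feed the differentiated surface, and growth of those cells depends on new ribosomes.

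Depth was 4518314 to 14290393 gene counts per library. Levels are CPM, counts scaled to library size by TMM, which corrects for composition, and changes are log2 fold changes with their standard error (SE). A gene was called at an edgeR quasi-likelihood p under 0.05 after Benjamini-Hochberg adjustment over all 12863 genes tested. All 9 epithelial markers had counts in every group, with sums of 10958 to 14772 CPM in monolayers and 9394 to 10667 CPM in crypts. Singly, 3 were called higher and 5 lower in monolayers than in crypts, where 30.7% and 32.8% of all genes were. Log2 fold changes of the 9 ran from -3.94 to 2.15. The 7 goblet markers summed to 16.9 to 72.5 CPM in monolayers, against 28120 to 36815 CPM in crypts. Leukocyte markers summed to 18.3 to 61.2 CPM in all libraries, but single markers differed. Of the 6 tested, 2 were called higher and 4 lower in monolayers than in crypts, with log2 fold changes of -7.99 to 4.41. Of all 10 leukocyte markers, 2 had 0 counts at day 3, 5 at day 4, 6 at day 5 and 0 in crypts. Fibroblast and muscle markers summed to at most 5.04 CPM in monolayers and 88.3 CPM in crypts.

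Most core genes share sequence with processed pseudogenes, and reads without a unique alignment had been left out of the deposited counts. The share of such reads was 17.8 ± 0.80% in day 3 monolayers, 17.4 ± 0.38% at day 4, 15.3 ± 1.01% at day 5 and 18.7 ± 0.38% in crypts (SD, n = 3 each). To show how much of each message could be counted, its transcript in GENCODE M21 was cut into windows of 50 bases, a length chosen without knowing the read length. In 76 of the 77 core genes at least 1 window also occurred in another annotated gene or pseudogene. The median core gene had 44.5% of its windows to itself and shared the others with a median of 10 genes. Rps27 had 1.35% of its windows to itself.

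Counted levels per kilobase of transcript ranged 321-fold among the 77 core genes, averaged over the 12 libraries. The highest were the acidic stalk protein Rplp1 at 1379 CPM per kb, the very short Rpl41 at 1374 and the RNA-binding Rpl22 at 1113. The lowest were Rpl24 at 4.29 CPM per kb, Rps27 at 4.32 and Rpl30 at 4.37. A total of 29 core genes lay under 30 CPM per kb, with a median of 28.7% of windows unique, and 48 lay at or above it, with a median of 46.5%. Across the 77 genes Spearman's rho between the share of unique windows and the level per kb was 0.36, given as a description, since these genes share the same libraries. Ribosomes hold their core proteins in nearly equal numbers, so the counted levels are not read here as relative message abundance between genes. Whether lost reads set the low levels was not tested.

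**Figure D1:**
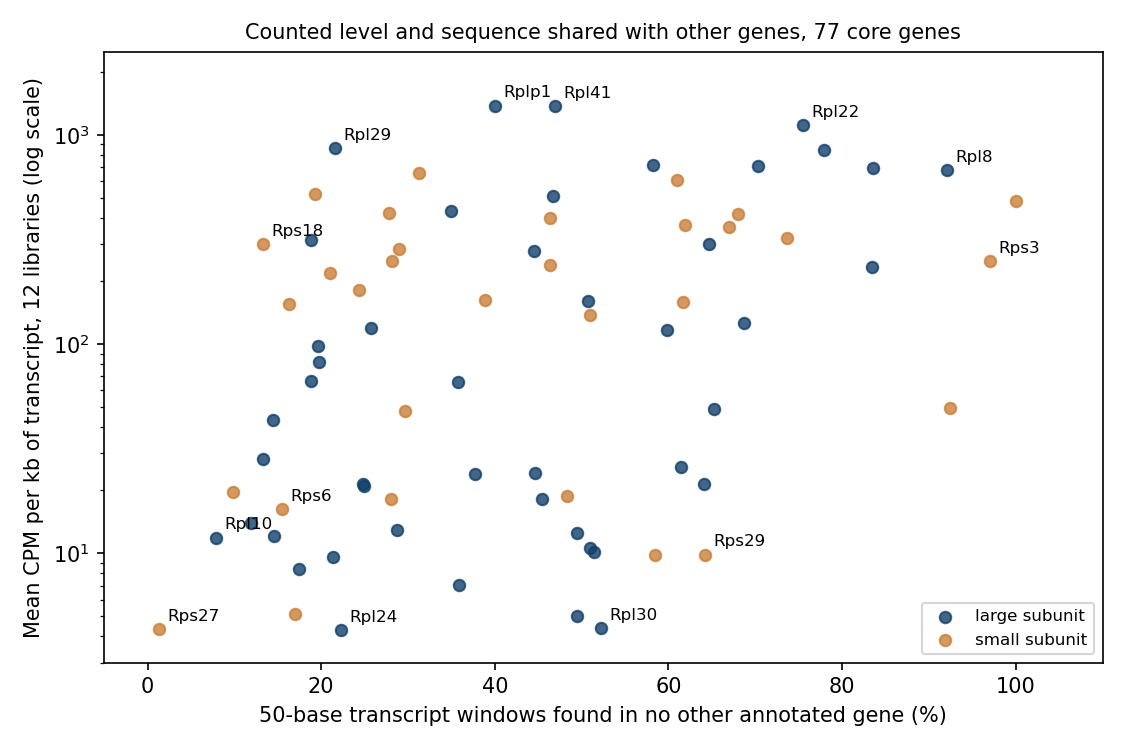
Each point is 1 of 77 core genes, with the percentage of 50-base transcript windows found in no other annotated gene on the horizontal axis and mean CPM per kb over 12 libraries on a logarithmic vertical axis. Levels span 4.29 to 1379 CPM per kb, and genes with few unique windows occur at both low and high levels.

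Of the 9 other genes that shared windows with Rps27, 8 were annotated pseudogenes. Rps27 and its paralogue Rps27l can be told apart by their bases. Both encode a zinc finger protein of the small subunit, and Rps27l is known as a p53 target in human cells. Rps27 lies at chr3:90212522-90213651 on the minus strand and Rps27l at chr9:66946086-66949516 on the plus strand (GRCm38, GENCODE M21). The first 120 coding bases of each are shown because they separate the paralogues, with the 28 bases that differ in capitals.
Rps27l: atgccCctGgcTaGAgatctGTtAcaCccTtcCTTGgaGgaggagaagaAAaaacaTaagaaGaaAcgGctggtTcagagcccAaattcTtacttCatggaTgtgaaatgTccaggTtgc
Rps27: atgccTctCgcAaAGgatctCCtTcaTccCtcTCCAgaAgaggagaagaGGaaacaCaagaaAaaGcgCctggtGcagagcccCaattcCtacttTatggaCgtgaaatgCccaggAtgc
Over the whole coding sequence 192 of 252 bases were identical, or 76.2%. Rps27l had 77.6% of its windows to itself. Its row held 473 to 2231 counts per library, and the Rps27 row held 0 to 35.

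The start sites of the core genes were searched for a pyrimidine tract nearby. Such a tract may lie before or after the annotated start, so it need not be the first bases of the message. RefSeq start sites on GRCm38.p6 were available for 57 core genes (67 sites), and a tract was scored as a C followed by at least 7 bases that were each C or T, on the transcript strand, within 20 bases of the start. It was found at 29 of 67 core sites (43.3%), against 4125 of 32851 sites of all genes (12.6%). Those of 7 genes are printed, from genes described below, as 10 bases before and 20 after the start, with the tract in capitals.
Rpl13a (chr7:45128726-45128755, minus strand): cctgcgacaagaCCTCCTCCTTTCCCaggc
Rpl14 (chr9:120571507-120571536, plus strand): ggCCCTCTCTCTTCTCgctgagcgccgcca
Rpl15 (chr14:18270967-18270996, minus strand): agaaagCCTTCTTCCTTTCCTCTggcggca
Rpl35a (chr16:33056472-33056501, plus strand): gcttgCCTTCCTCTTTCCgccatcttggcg
Rplp2 (chr7:141447641-141447670, plus strand): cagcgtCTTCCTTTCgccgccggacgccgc
Rps9 (chr7:3704031-3704060, plus strand): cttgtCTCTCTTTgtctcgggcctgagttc
Rps18 (chr17:33955646-33955675, minus strand): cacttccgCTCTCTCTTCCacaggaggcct
The tract is a description of these letters, and a count of messages does not measure their translation.

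Core ribosomal protein messages were more abundant in day 3 and day 4 monolayers than in crypts, and less abundant at day 5 than at day 4. Their levels summed to 17297, 18333 and 16226 CPM at day 3, to 16766, 16385 and 16930 CPM at day 4, to 11190, 10238 and 11366 CPM at day 5, and to 12692, 11570 and 12971 CPM in crypts. No day 3 or day 4 library overlapped with the day 5 or crypt libraries. Day 5 libraries all lay below the lowest crypt library. The mean sum was 1.39 times that of crypts at day 3, 1.35 times at day 4 and 0.881 times at day 5. Of all gene counts, core genes took 1.69 ± 0.10% at day 3, 1.63 ± 0.05% at day 4, 1.04 ± 0.09% at day 5 and 1.37 ± 0.11% in crypts (SD, n = 3 each). In bulk RNA, fewer cells that make a message and less of it per cell cannot be told apart.

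**Figure D2:**
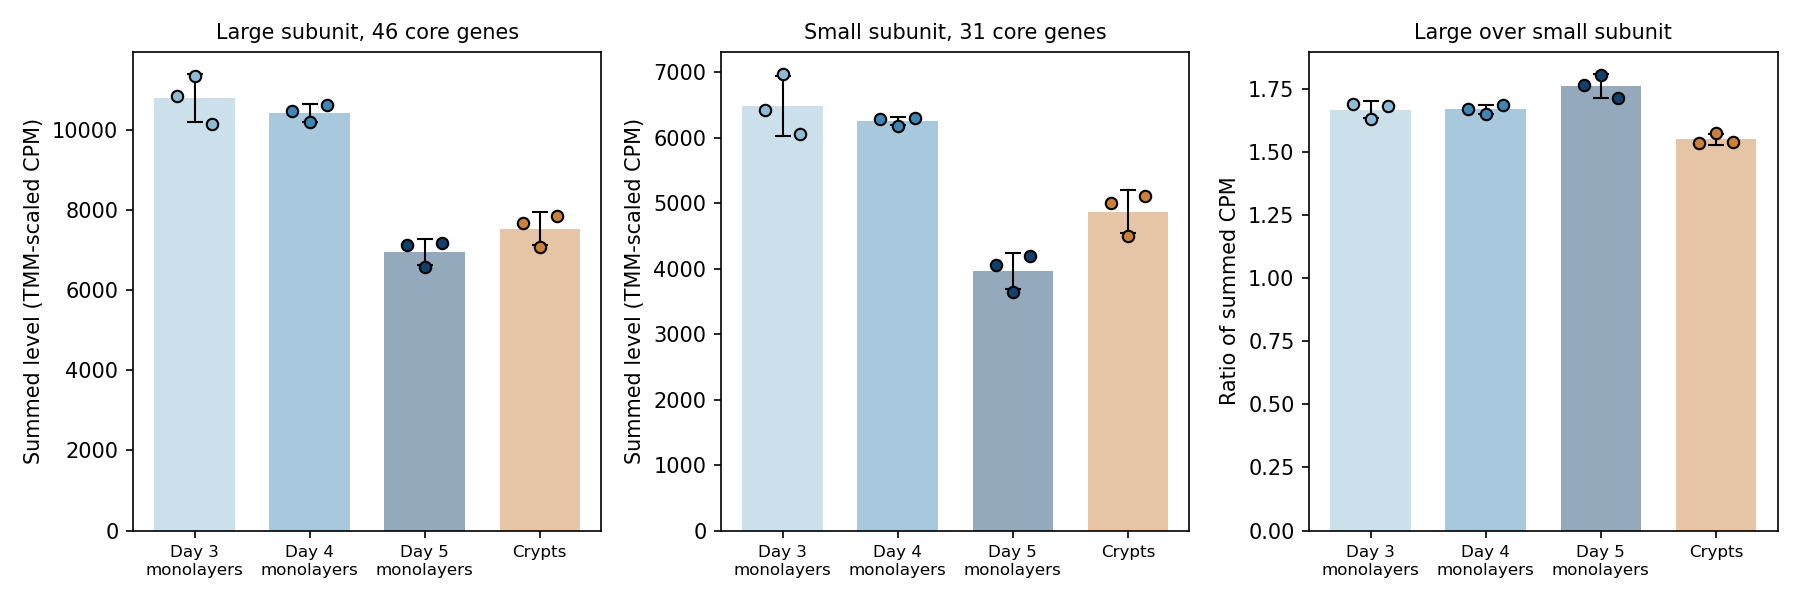
Summed TMM-scaled CPM of 46 large subunit genes (left) and 31 small subunit genes (middle), and the ratio of these sums (right), for monolayers at day 3, 4 and 5 and crypts; points are libraries, bars their mean and error bars the SD of 3. Both sums are lowest at day 5, and the ratio is 1.76 at day 5 and 1.55 in crypts.

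Both subunits followed this course, with a higher large to small ratio in every monolayer library than in any crypt library. The 46 large subunit genes summed to 10801 ± 600 CPM at day 3, 10437 ± 218 at day 4, 6967 ± 330 at day 5 and 7539 ± 411 in crypts. The 31 small subunit genes summed to 6484 ± 459 CPM at day 3, 6257 ± 62.1 at day 4, 3964 ± 280 at day 5 and 4872 ± 331 in crypts. At day 5 the mean of the large subunit sum was closer to that of crypts than the mean of the small subunit sum was. The ratio was 1.69, 1.63 and 1.68 in day 3 libraries, 1.67, 1.65 and 1.69 in day 4 libraries, 1.76, 1.80 and 1.71 in day 5 libraries, and 1.53, 1.57 and 1.54 in crypts. As a sum it follows the most counted genes. Without the 5 of highest mean (Rpl4, Rplp0, Rpl13a, Rplp1 and Rpsa) it was 1.13 at day 3, 1.13 at day 4, 1.18 at day 5 and 1.04 in crypts. As a ratio of median levels it was 0.41 at day 3, 0.34 at day 4, 0.40 at day 5 and 0.35 in crypts, so that day 4 lay below crypts on this measure. The difference between subunits itself was not tested.

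At day 3, 50 of the 83 members tested were called higher than in crypts and 1, Rps4y2, lower. Of all 12863 genes tested 28.4% were called higher and 27.9% lower. Scaled to library totals instead of TMM, 25 members were called higher and 2 lower. The share of all genes called under that scaling is not given here. Its median log2 fold change was 0.29 for core genes and -0.20 for all genes. Under TMM the median log2 fold change was 0.46 for the members, against -0.03 for all genes. Among core genes, 28 of 46 in the large subunit (median 0.51) and 20 of 31 in the small subunit (median 0.37) were higher. Core genes with at least 50% unique windows gave 19 of 29, and those with fewer gave 29 of 48. The members not tested were Rpl3l and Rpl10l, with 1 count in all libraries together, and Rpl39l with 0.

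The stalk base protein Rplp0 had 1199, 1228 and 1176 CPM at day 3, against 860, 794 and 895 CPM in crypts, and rose by 0.50 ± 0.07 (edgeR adjusted p = 1.57e-05). Rpsa, a small subunit protein also known as the laminin receptor, had 847, 830 and 860 CPM at day 3, against 499, 482 and 522 CPM in crypts, and rose by 0.75 ± 0.08 (adjusted p = 2.22e-07). Rps2, whose yeast counterpart affects decoding accuracy, had 326, 347 and 309 CPM at day 3, against 149, 156 and 236 CPM in crypts, and rose by 0.85 ± 0.14 (adjusted p = 5.8e-05). In none of these 3 genes did the groups overlap. Rps3, which lines the messenger RNA entry, rose by 0.58 ± 0.08, and Rps19, mutated in human Diamond-Blackfan anaemia, rose by 0.46 ± 0.10. Rps27a, whose protein is made as a fusion with ubiquitin, rose by 0.68 ± 0.25 (adjusted p = 0.0271). It lost its call without day 3 replicate 1 or 2 or crypts replicate 1 or 2, where the adjusted p was 0.0524 to 0.0675 and the log2 fold change 0.61 to 0.68, and also with library totals (0.51) or no count filter (0.69).

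Some well-known members were not called. Rpl5 and Rpl11 form with 5S ribosomal RNA the particle that binds Mdm2. Rpl5 had 31.1, 22.6 and 22.6 CPM at day 3, against 10.8, 17.8 and 19.5 CPM in crypts (0.64 ± 0.28, edgeR adjusted p = 0.0608). Its groups did not overlap, and it passed the threshold without crypts replicate 3 (0.81, adjusted p = 0.0414), with no count filter (0.65, adjusted p = 0.0113) and in a fit of only these groups (0.64, adjusted p = 0.034). Rpl11 had a log2 fold change of 0.34 ± 0.22 (adjusted p = 0.192) and Rpl10, a late-assembling large subunit protein, one of 0.53 ± 0.34 (adjusted p = 0.191). Rps6, the phosphorylation target of S6 kinases, had 19.3, 17.4 and 15.9 CPM at day 3, against 18.2, 10.6 and 14.0 CPM in crypts (0.31 ± 0.26, adjusted p = 0.329). Rps6 and Rpl10 had 15.4% and 7.87% of their windows to themselves. Rps14 had a log2 fold change of 0.26 ± 0.15 (adjusted p = 0.152) and was called without crypts replicate 1 (0.49, adjusted p = 0.00512) and with no count filter (0.28, adjusted p = 0.0202).

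At day 4, 39 of the 83 members were called higher than in crypts and 1, again Rps4y2, lower, where 28.7% and 28.4% of all genes were. With library totals 21 were called higher and 2 lower, and the share of all genes is not given here. The median was then 0.22 for core genes and -0.19 for all genes. Under TMM the median was 0.37 for the members, against -0.02 for all genes. The large subunit had 21 of 46 members called higher (median 0.41) and the small subunit 16 of 31 (median 0.37). Between day 4 and day 3 only Rpl3, a protein next to the peptidyl transferase centre, was called, and lower at day 4, where 1.17% of all genes were called lower. Rpl3 had 54.7, 61.6 and 59.6 CPM at day 4, against 85.4, 70.5 and 81.3 CPM at day 3 (-0.43 ± 0.11, edgeR adjusted p = 0.0466). The groups did not overlap, but this call was lost on leaving out any of the 6 libraries, with adjusted p of 0.0602 to 0.263 and log2 fold changes of -0.51 to -0.37. It was also lost with a replicate block (-0.43, adjusted p = 0.0822), with library totals (adjusted p = 0.0599) and with no count filter (adjusted p = 0.0507). No member was called higher by edgeR or by DESeq2, where 1.59% of all genes were by edgeR, and 1 of 83 had an unadjusted p under 0.05 in that direction.

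**Figure D3:**
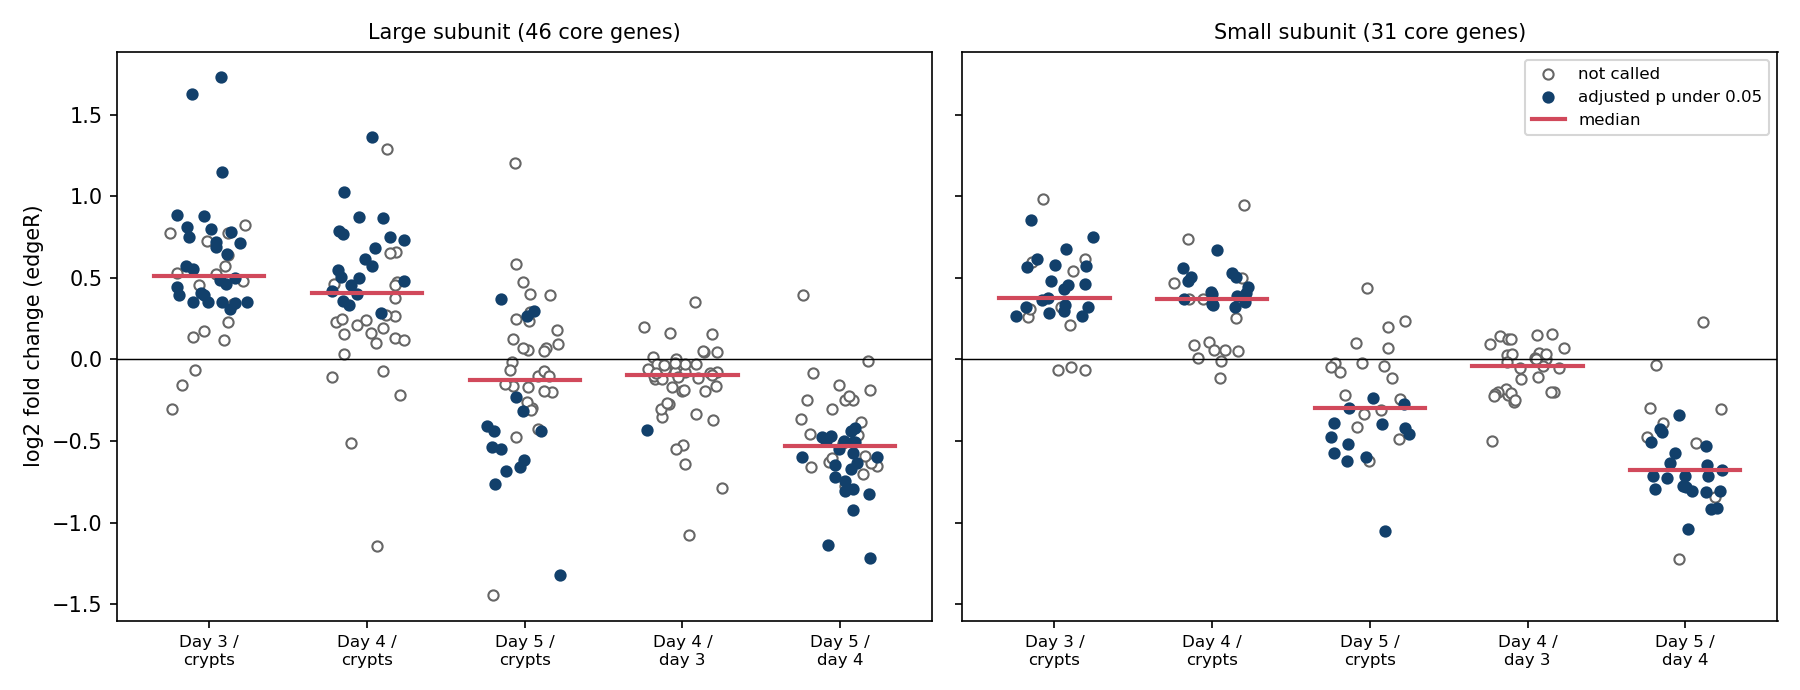
Log2 fold change of each core gene (points; filled where the edgeR adjusted p is under 0.05) in 5 comparisons, for the large subunit (left) and the small subunit (right), with medians as red lines. For day 5 against day 4 the medians are -0.53 and -0.68, and filled points all lie below 0.

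At day 5, 48 of 83 members (57.8%) were called lower than at day 4, where 4.2% of all genes were. The median was -0.58, against -0.00 for all genes. The large subunit had 23 of 46 called lower (median -0.53) and the small subunit 22 of 31 (median -0.68). No member was called higher by edgeR or DESeq2, where 3.36% of all genes were by edgeR, and 0 had an unadjusted p under 0.05 in that direction. Of the 83 log2 fold changes, 80 were below 0. Among 52 members averaging at least 30 CPM over the 12 libraries, 45 were called lower. The other 7 were Rpl7a, Rpl7l1, Rpl13, Rpl19, Rpl37, Rps7 and Rps28, with log2 fold changes of -0.47 to -0.21. Core genes with at least 50% unique windows gave 22 of 29 (median -0.60) and those with fewer gave 23 of 48 (median -0.58).

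Several other measures moved with day 5. The 10 proliferation markers summed to 601 to 815 CPM at day 3, 402 to 589 CPM at day 4, 105 to 120 CPM at day 5 and 1402 to 1672 CPM in crypts, with none of the 10 at 0 in any group. Malat1, a nuclear RNA, made up 5.65 to 5.98% of gene counts at day 3, 7.40 to 8.05% at day 4, 9.30 to 12.2% at day 5 and 2.02 to 2.34% in crypts. Reads without a unique alignment were fewest at day 5, as given above. Proliferation marker sums were highest in crypts, where core ribosomal protein sums were below those of day 3 and day 4. Goblet marker sums were also highest in crypts, as given above. The part of any of these measures in the ribosomal protein levels, at day 5 or in crypts, was not tested.

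The largest falls between day 4 and day 5 were those of Rpl22l1, Rpl35a, Rpl12 and Rps21, among members averaging at least 8 CPM and called by edgeR. Rps12, also above that level, had a log2 fold change of -1.22 ± 0.37 and was not called (adjusted p = 0.0511). Rps21, a small subunit protein, had 70.9, 66.9 and 75.0 CPM at day 5, against 138, 141 and 159 CPM at day 4 (-1.04 ± 0.10, edgeR adjusted p = 3.34e-06). Rpl35a had 3.43, 5.65 and 4.33 CPM at day 5, against 9.56, 12.2 and 10.2 CPM at day 4 (-1.22 ± 0.29, adjusted p = 0.0119). Neither gene overlapped between these days. Rpl35a lost its call without day 4 replicate 2 (-1.11, adjusted p = 0.0663). Rpl12, at the base of the stalk, had 5.44, 7.17 and 13.3 CPM at day 5, against 21.1, 16.8 and 19.0 CPM at day 4 (-1.14 ± 0.29, adjusted p = 0.0189). Day 5 replicate 3 was the highest of its group, and the call was lost without day 4 replicate 1 or 3 or day 5 replicate 1 or 2 (adjusted p 0.0588 to 0.0985, log2 fold change -1.14 to -0.93).

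Highly counted members also fell. Rplp0 had 719, 706 and 746 CPM at day 5, against 1137, 1083 and 1186 CPM at day 4 (-0.65 ± 0.08, adjusted p = 2.29e-05). Rpsa had 492, 444 and 525 CPM at day 5, against 692, 710 and 768 CPM at day 4 (-0.57 ± 0.08, adjusted p = 0.00016). Rpl7 had 465, 492 and 552 CPM at day 5, against 750, 728 and 767 CPM at day 4 (-0.57 ± 0.08, adjusted p = 0.000159). No library of day 5 reached the lowest of day 4 in these 3 genes. Rps3 fell by 0.63, Rps19 by 0.73 and Rps14 by 0.81 on the log2 scale, all called by edgeR. Rps6, Rpl5, Rpl10, Rpl11 and Rps27a were not called, with log2 fold changes of -0.77 to -0.03.

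Against day 3, 55 of 83 members were called lower at day 5, where 10.5% of all genes were, with a median of -0.66 against -0.01 for all genes. No member was called higher by edgeR or DESeq2, where 9.9% of all genes were by edgeR, and 0 had an unadjusted p under 0.05 in that direction. A total of 46 members were called lower in both day 5 comparisons, which share the day 5 libraries, where 3.8% of all genes were. Rps2 had 116, 122 and 158 CPM at day 5, against 326, 347 and 309 CPM at day 3 (-1.31 ± 0.15, edgeR adjusted p = 3.84e-06). At day 4 it had 221, 231 and 242 CPM, between the other days without overlap. Rpl10a fell by 1.18 and Rps12 by 1.08 on the log2 scale. Rpl10a lost its call without day 3 replicate 1 or day 5 replicate 2 (-1.04 and -0.89, adjusted p of 0.0665 and 0.0796). Rps12 lost its call on leaving out any one library but day 5 replicate 3 (adjusted p 0.0711 to 0.138, log2 fold change -1.24 to -0.82).

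Set against crypts, day 5 monolayers had 29 of 83 members called lower and 3 higher, where 28.9% and 28.4% of all genes were called. Under TMM scaling the share lower was near that of all genes and the share higher below it, while with library totals 43 members were called lower and 0 higher. The share of all genes called with library totals is not given here. The median was then -0.40 for core genes and -0.23 for all genes. Under TMM the median was -0.22 for the members, against -0.03 for all genes. The large subunit had 12 of 46 called lower (median -0.12) and the small subunit 13 of 31 (median -0.30). Rps21 had 70.9, 66.9 and 75.0 CPM at day 5, against 146, 145 and 150 CPM in crypts (-1.05 ± 0.10, edgeR adjusted p = 6.82e-08). At day 3 and day 4 it had 130 to 161 CPM, which overlapped with crypts. The 3 members higher than crypts at day 5 were Rpl13a (0.37 ± 0.08), Rpl7 (0.30 ± 0.08) and Rpl22 (0.27 ± 0.09), and none of their day 5 libraries overlapped with crypts. A total of 18 members were called higher at day 3 and lower at day 5 than in crypts, as were 0.373% of all genes. Among them were Rpl14 (0.35 at day 3 and -0.62 at day 5), the stalk protein Rplp2 (0.31 and -0.53), Rps9 (0.26 and -0.60) and Rps18 (0.43 and -0.52), whose start sites are printed above. All comparisons with crypts use the same 3 crypt libraries.

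Averaged over the 3 days, monolayers had 26 of 83 members called higher than crypts and 6 lower, where 30.7% and 32.8% of all genes were called. The median was 0.23, against -0.03 for all genes. This split depended on scaling, and with library totals in place of TMM factors 11 were called higher and 9 lower. The median was then 0.05 for core genes and -0.21 for all genes, and the share of all genes called is not given here. The average covers days that differ from each other, as described above. The large subunit had 16 of 46 called higher (median 0.24) and the small subunit 9 of 31 (median 0.19).

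The members highest over crypts in that average, with at least 8 CPM, were Rpl37a, Rpl13a, Rpl7, Rpl22, Rpl13 and Rps27a. Rpl13a, known in human monocytes for a second role in silencing inflammatory messages, had 749 to 1134 CPM in the 9 monolayer libraries (median 1047), against 605, 572 and 636 CPM in crypts (0.68 ± 0.07, edgeR adjusted p = 4.43e-08). Rpl7, a large subunit protein, rose by 0.66 ± 0.07 (adjusted p = 1.09e-07), and Rpl22 by 0.58 ± 0.08 (adjusted p = 2.3e-06). These 3 genes were called higher on every day. Rpl13 rose by 0.58 ± 0.15 and Rpl37a by 0.86 ± 0.26. Rpl37a had 8.69 to 23.5 CPM in monolayers, against 10.0, 11.7 and 4.87 CPM in crypts, and was not called without crypts replicate 3 (0.53, adjusted p = 0.0692). Rps27a (0.53 ± 0.21, adjusted p = 0.0365) was not called without crypts replicate 1 or 2, day 3 replicate 1 or 2 or day 4 replicate 2 or 3 (0.46 to 0.53, adjusted p 0.0501 to 0.106), nor with library totals (0.34), no count filter (0.54) or a replicate block (0.52, adjusted p = 0.0538).

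Among the core members lowest against crypts in that average were Rpl35a, Rpl15 and Rps21. Rps21 fell by 0.37 on the log2 scale (SE 0.08, edgeR adjusted p = 0.00052). Rpl35a (-0.58 ± 0.22) was not called without crypts replicate 1 (-0.44, adjusted p = 0.136) or with no count filter (-0.57, adjusted p = 0.071). Rpl15 (-0.48 ± 0.18) was not called without day 3 replicate 1, day 4 replicate 1, day 5 replicate 2, or crypts replicate 1 or 2 (-0.49 to -0.41, adjusted p 0.0505 to 0.105).

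**Figure D4:**
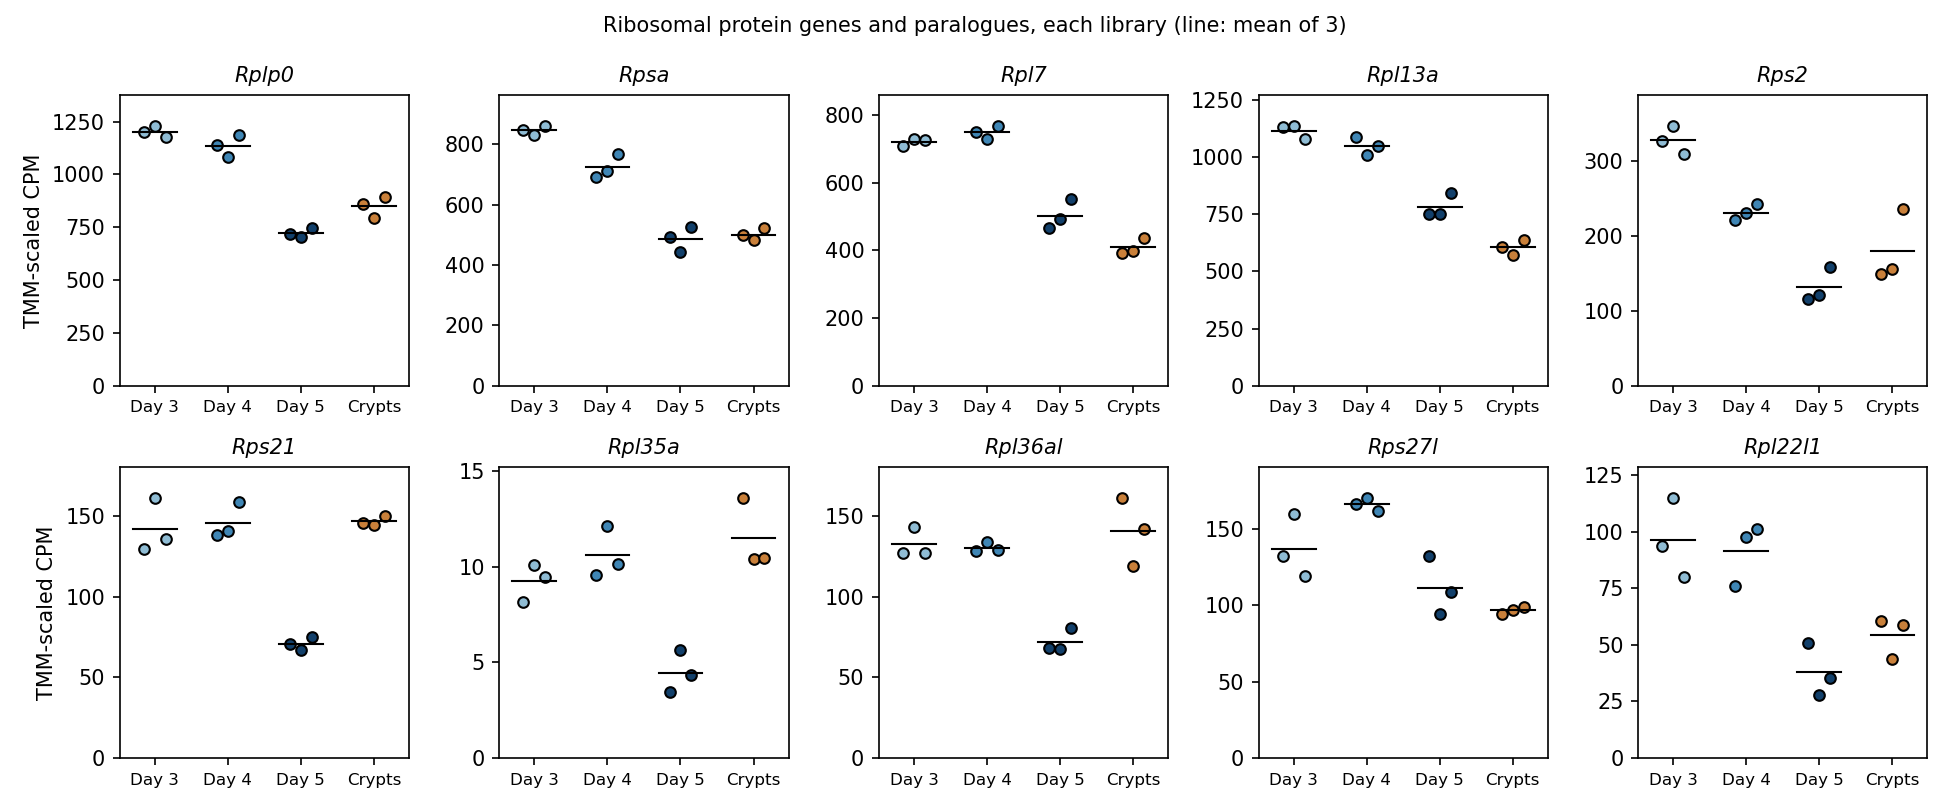
TMM-scaled CPM of 10 members in each library (points, line at the mean of 3) for monolayers at day 3, 4 and 5 and crypts, with each vertical axis starting at 0. Rps21 and Rpl36al are near the crypt level at day 3 and day 4 and lower at day 5, while Rpl7 and Rpl13a stay above crypts on every day.

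Among the paralogues, Rpl22l1 had the largest fall at day 5. Rpl22l1, the paralogue of Rpl22, had 93.8, 115 and 80.1 CPM at day 3, 76.2, 97.5 and 101 CPM at day 4, 50.8, 28.0 and 35.2 CPM at day 5, and 60.6, 43.9 and 58.9 CPM in crypts. Day 3 and day 4 libraries all lay above crypts, while day 5 overlapped with crypts. Rpl22l1 was called higher than crypts at day 3 (0.82 ± 0.19, edgeR adjusted p = 0.0011), and lower at day 5 than at day 4 (-1.29 ± 0.19, adjusted p = 0.000308) and than in crypts (-0.54 ± 0.20, adjusted p = 0.0253). Rpl22l1 held 0.153 ± 0.021 of the Rpl22 count at day 3, 0.142 ± 0.022 at day 4, 0.082 ± 0.022 at day 5 and 0.144 ± 0.022 in crypts (SD, n = 3 each). No day 5 library reached the ratio of any other library. The coding sequences were identical at 69.7% of aligned bases, and Rpl22l1 and Rpl22 had 47.3% and 75.5% of windows to themselves.

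Rps27l was called higher than crypts at day 3 (0.50 ± 0.12) and day 4 (0.78 ± 0.12). It had 133, 94.0 and 108 CPM at day 5, against 167, 170 and 162 CPM at day 4, and fell by 0.58 on the log2 scale (SE 0.12, edgeR adjusted p = 0.00512). Rpl36al, the paralogue of Rpl36a, had 68.1, 67.7 and 80.9 CPM at day 5, against 128, 134 and 129 CPM at day 4 (-0.85 ± 0.11, adjusted p = 9.66e-05). It was at 127 to 144 CPM at day 3 and 119 to 161 CPM in crypts, which overlapped. Its row held 11.1 to 46.4 times the count of Rpl36a across the 12 libraries. Rpl36a had 14.5% of its windows to itself, Rpl36al 53.5%, and the coding sequences were identical at 87.7% of bases.

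Rpl7l1, which acts in assembly of the large subunit in human cells, was called neither between monolayers and crypts (0.08 ± 0.13, edgeR adjusted p = 0.599) nor between day 5 and day 4 (-0.21 ± 0.15, adjusted p = 0.487). It was called lower at day 5 than at day 3 (-0.52 ± 0.15, edgeR adjusted p = 0.0207). Its level was 0.134 ± 0.018 of that of Rpl7 at day 3, 0.104 ± 0.006 at day 4, 0.132 ± 0.025 at day 5 and 0.183 ± 0.021 in crypts (SD, n = 3 each), with every monolayer library below every crypt library. Rps4y2 had 3.19 to 9.48 CPM in monolayers, against 17.0, 15.1 and 11.4 CPM in crypts (-1.44 ± 0.25, adjusted p = 6.51e-05). Rps19bp1 had a log2 fold change of -0.38 ± 0.17 between monolayers and crypts (adjusted p = 0.0607) and was called in 6 alternatives, namely without crypts replicate 1 or 2 and with DESeq2, relative log expression factors, library totals or a minimum count of 50 (-0.57 to -0.41, adjusted p 0.00989 to 0.0447). At day 5 alone Rps19bp1 was called lower than in crypts (-0.70 ± 0.22, edgeR adjusted p = 0.0116).

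Gnb2l1, a scaffold on the head of the small subunit, had 526, 498 and 549 CPM at day 5, against 831, 822 and 888 CPM at day 4 (-0.69 ± 0.09, edgeR adjusted p = 8.19e-05). Fau, made as a fusion with a ubiquitin-like domain, had a log2 fold change of -0.09 ± 0.22 (adjusted p = 0.876) in the same comparison.

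Genes that make, use or regulate ribosomes were set beside the members as lists. Of 42 translation factors tested, 29 were called higher and 3 lower at day 3 than in crypts (median 0.46), where 28.4% and 27.9% of all genes were. Of the same factors 15 were called lower at day 5 than at day 4 (median -0.29), where 4.2% of all genes were. The largest falls between day 4 and day 5 in this list were those of Eif1ax (-0.65), the initiation factor subunit Eif3e (-0.52), and the elongation factor subunits Eef1g (-0.50) and Eef1b2 (-0.50). Eif1ax lost its call without day 4 replicate 1 or 2 or day 5 replicate 1 or 2 (-0.66 to -0.56, adjusted p 0.0532 to 0.123), and Eef1g without the same libraries (-0.50 to -0.44, adjusted p 0.0533 to 0.112). Between monolayers and crypts 24 factors were called higher and 5 lower (median 0.26), where 30.7% and 32.8% of all genes were. Those highest over crypts were Eif2s2, the beta subunit of initiation factor 2 (1.96 ± 0.10), and Eif1a (1.15 ± 0.13). Eif2b1 (-0.98 ± 0.15) and Eif2b4 (-0.68 ± 0.16), subunits of the exchange factor for initiation factor 2, were lower.

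Of 61 ribosome biogenesis genes, which make and process ribosomal RNA and assemble the subunits, 11 were called higher and 8 lower at day 3 than in crypts (median 0.04), both shares below those of all genes given above. At day 5, 4 were called higher and 33 lower than in crypts (median -0.57), where 28.4% and 28.9% of all genes were. Between day 5 and day 4, 6 were called lower (median -0.33), where 4.2% of all genes were, and between day 5 and day 3, 29 were lower and 1 higher (median -0.68), where 10.5% and 9.9% were. The nucleolar chaperone Npm1 had 344, 283 and 296 CPM at day 5, against 560, 585 and 596 CPM at day 4 (-0.92 ± 0.08, edgeR adjusted p = 1.61e-06), and it was also higher in monolayers than in crypts (0.86 ± 0.07). Rsl1d1, Nmd3 and Nop58 fell by 0.57, 0.56 and 0.55 on the log2 scale between these days. Rsl1d1 lost its call without day 4 replicate 2 or 3 or day 5 replicate 1 (-0.56 to -0.45, adjusted p 0.0689 to 0.0988), and Nmd3 without day 4 replicate 3 or day 5 replicate 1 (-0.51 and -0.49, adjusted p of 0.0865 and 0.0542). Between monolayers and crypts 8 of the 61 were called higher and 24 lower (median -0.26), where 30.7% and 32.8% of all genes were. Nop14, Gnl2 and Rsl1d1 were higher in monolayers than in crypts, by 0.76, 0.60 and 0.54. The processome component Utp20 (-2.22 ± 0.12), the RNA polymerase I subunit Polr1b (-1.43 ± 0.29), Tcof1 (-1.20 ± 0.13), a factor for transcription of ribosomal DNA, and Tsr1 (-1.02 ± 0.12) were lower.

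Of 37 genes of mTORC1 signalling, Myc and TOP regulation, 13 were called higher and 11 lower in monolayers than in crypts (median -0.00), shares near the 30.7% and 32.8% of all genes, so the genes named here are given for their own values. Myc, which drives transcription of ribosomal protein genes, had 267, 223 and 268 CPM at day 3, 143, 173 and 179 CPM at day 4, 80.6, 88.0 and 110 CPM at day 5, and 29.8, 23.6 and 22.4 CPM in crypts. No group overlapped with another. Between day 5 and day 4, 2 of the 37 genes were called lower and 1 higher (median -0.01), where 4.2% and 3.36% of all genes were. Myc fell by 0.83 on the log2 scale between these days (SE 0.13, edgeR adjusted p = 0.000509). Eif4ebp1, a translational repressor that mTORC1 phosphorylates, fell by 0.83 in the same comparison and was 3.08 ± 0.14 above crypts over all days. The stress-induced mTORC1 inhibitors Ddit4 (2.41 ± 0.14) and Sesn2 (1.67 ± 0.24) were higher than in crypts, and the Myc antagonists Mxd4 (-1.51 ± 0.15) and Mxd1 (-1.16 ± 0.09) and the mTOR inhibitor Deptor (-1.28 ± 0.12) were lower. Slc38a9 (-0.94 ± 0.32), a lysosomal amino acid sensor, lost its call without crypts replicate 3 (-0.80, adjusted p = 0.0789). Mxd1 was higher at day 5 than at day 4 (0.41 ± 0.11), a call lost without day 4 replicate 2 or 3 or day 5 replicate 1 or 3 (0.33 to 0.41, adjusted p 0.0725 to 0.176).

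**Figure D5:**
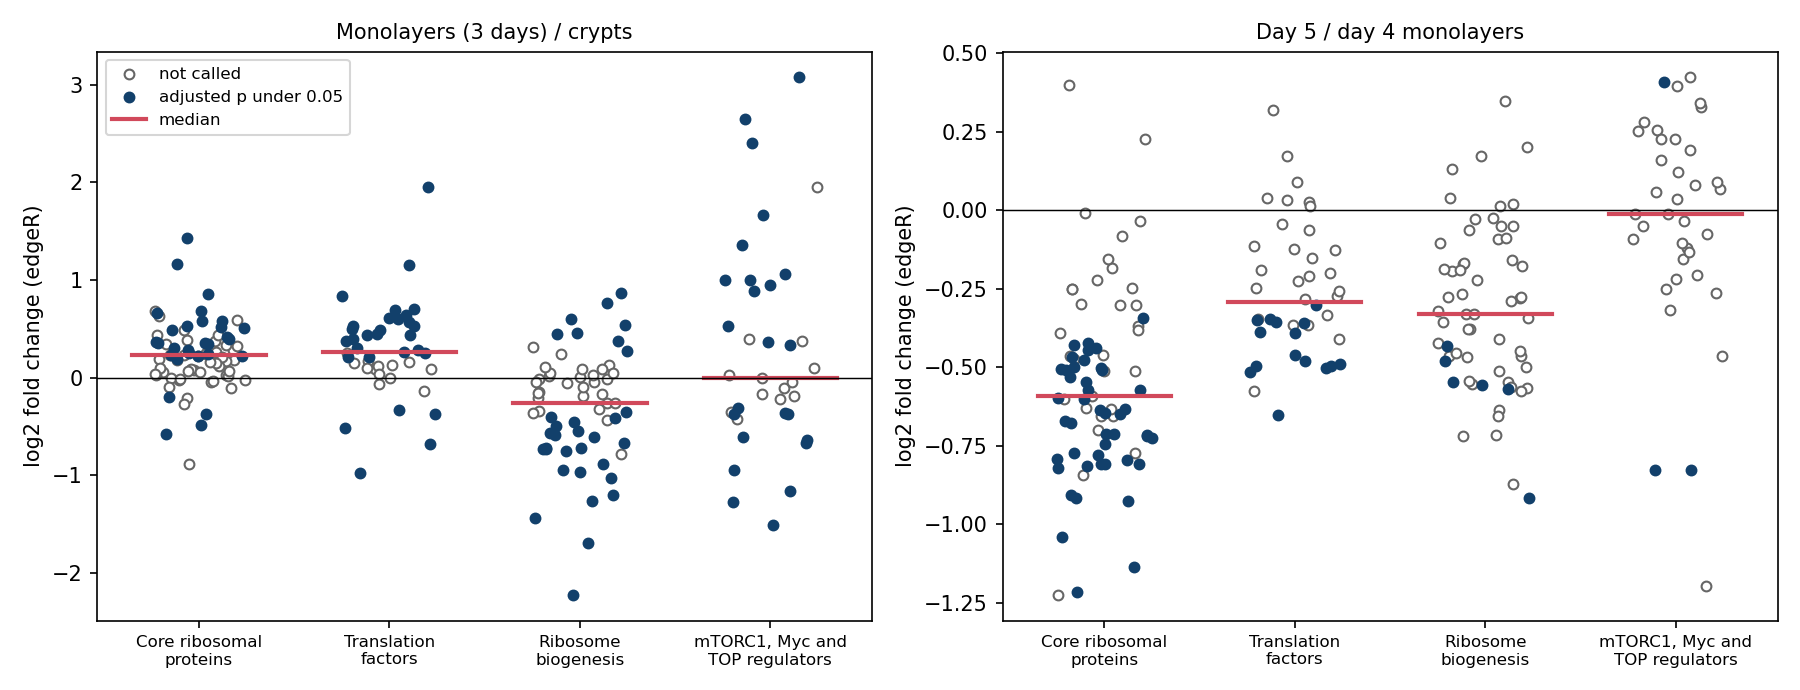
Log2 fold change of each gene (points; filled where the edgeR adjusted p is under 0.05) in 4 lists, for monolayers of the 3 days together against crypts (left) and for day 5 against day 4 (right), with medians as red lines. On the right the median is -0.59 for core ribosomal proteins, -0.29 for translation factors, -0.33 for ribosome biogenesis and -0.01 for the regulators.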

How the data were processed

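Total RNA of 12 libraries was sequenced by the submitters. Files hold whole-number counts per gene symbol deposited by the authors, unnormalized. The tools named, per the submitters' processing notes, are CASAVA 1.9, TopHat2 and HTSeq, and builds mm9 and mm10 appear there with no role. Annotation, strand setting and read length were not given in the sources used, so overlapping and antisense genes are uncertain, and coordinates are those of the reference annotation. Reads in genes were 31.7 to 35.6% of crypt libraries and 41.8 to 43.5% of monolayer libraries. Reads in no feature were 45.6 to 49.0% and 38.7 to 42.8%. TMM factors were 1.08 to 1.12 in crypts and 0.91 to 1.00 in monolayers. These differences run with every comparison with crypts, and their part in the results was not tested. The counter's summary lines stayed out of library sizes and tests.

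Here, counts were fitted in R 4.3.3 with edgeR 4.0.16 in 1 model of 12 libraries (filterByExpr, minimum count 10; TMM factors 0.91 to 1.12; quasi-likelihood test; Benjamini-Hochberg over 12863 genes), and the test was tried on simulated data. Standard errors are the log2 fold change divided by the square root of the quasi-likelihood F. Alternatives were DESeq2 1.42.0, other scalings and filters, a replicate block and leaving out each library. Replicates all differed by more than sampling noise. Sequences came from RefSeq (GRCm38.p6) and GENCODE M21. Named members were the largest called changes with a mean of at least 8 CPM, all paralogues and a list named whatever their value. The members and lists were chosen with earlier results of these data known. Results on some genes are not reported here.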

Additional observations from a re-analysis of the deposited data

Results flagged for a closer look

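Day 3 and day 5 monolayers differed in opposite directions from the same crypts in 18 members, which were called higher at day 3 and lower at day 5, and called lower at day 5 than at day 3, by edgeR, as were 0.373% of all genes. These were 7 large subunit proteins, 10 small subunit proteins and Rpl22l1. The day 5 against day 3 log2 fold change was -1.37 for Rpl22l1, -1.31 for Rps2, -0.87 for Rpl3 and -0.73 for Rplp0. The calls against crypts already set the direction of that comparison in these 18 members, so its values only describe them.

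Rows named as pseudogenes of ribosomal proteins, which no comparison used, also held counts over the 12 libraries. Rps15a-ps6 held 1624 counts, Rps15a-ps4 held 200, Rps19-ps3 held 188, Rpl34-ps1 held 119 and Rpl31-ps12 held 15. Groups of 3 libraries were too small for a test of outlying samples.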

How the results depend on the processing

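The lower level at day 5 held its direction in every alternative run, with 49 to 51 members called lower than at day 4 under other tools, scalings and filters and 38 to 47 on leaving out a library. Library totals in place of TMM factors shifted the median of all genes by -0.18 between monolayers and crypts. Members called higher were then 11 for monolayers, 25 at day 3, 21 at day 4 and 0 at day 5 against crypts, with 2 lower at day 3, 2 at day 4 and 43 at day 5, and 0 lower for day 4 against day 3. The core sums were then 1.24, 1.19 and 0.764 times crypts at days 3, 4 and 5. Shares of all genes called under library totals are not given here. DESeq2, relative log expression factors and a minimum count of 50 each gave 2 lower at day 4. For day 4 against day 3, DESeq2 gave 3 lower, a fit of only these groups 5, and leaving out a library 0 to 0. Leaving out a library gave 0 to 1 lower at day 3, 3 to 5 higher at day 5 against crypts (5 without day 5 replicate 2) and a day 4 sum of 1.30 to 1.38 times crypts. That sum was 1.32 times without the 5 most counted genes and 1.38 times with genes of at least 50% unique windows, a setting added after seeing the data. The subunit ratio with those genes was 2.35, 2.23, 2.40 and 1.97 at day 3, day 4, day 5 and in crypts; without the 5 most counted genes it was 1.13, 1.13, 1.18 and 1.04; as a ratio of medians 0.414, 0.344, 0.404 and 0.354; and without genes that have a pseudogene row 1.71, 1.71 and 1.58 at day 3, day 4 and in crypts. The cause of these shifts was not tested.

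Deviations of same-numbered libraries from their group means correlated at -0.03 to 0.06, against -0.08 to 0.03 for libraries of different numbers. With 3 libraries per group these values cannot tell whether a number marks a shared mouse or culture. With the replicate block 50 members were lower at day 5 than at day 4, against 48 without it. Reversed signs occurred only in genes that were not called: Rpl7l1 between monolayers and crypts with library totals (-0.098) and on leaving out a library (-0.0083 to 0.15), and, leaving out a library between day 5 and day 4, Rps4y2 (-0.041 to 0.394), Rpl5 (-0.512 to 0.106), Rps27a (-0.296 to 0.0932) and Fau (-0.178 to 0.0252). Of 93 gene results, 19 lost a call in at least 1 setting and 4 gained one. Low counts limit Rps27, Rpl24 and other members with few unique windows.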
